A study of Mus musculus with 24 samples.

Results

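The cytosolic ribosomal proteins are the protein parts of the ribosome that translates messenger RNA in the cytoplasm. They were read here on 97 of the 45037 probe sets tested, which stand for 44 of the 18193 genes with a probe set of their own. A probe set is a group of short array probes that together measure one transcript. A member had to be annotated to 1 gene only, and that gene's symbol had to be Rps or Rpl with a number, or that of a P-stalk protein (Rplp0, Rplp1, Rplp2). Pseudogenes, the Rps6k kinases and mitochondrial ribosomal proteins were left out. The small subunit had 53 member probe sets for 20 genes and the large subunit 44 for 24 genes. The choice used names and no measured value, though earlier results of these data were known. It removed 1 probe set of Rps4l, which NCBI lists as a transcribed pseudogene. It also set aside 110 ribosomal protein probe sets annotated to several genes, and 28 ribosomal protein genes, among them Rpl3, Rpl5, Rpl10 and Rplp1, had no other kind. All comparisons below therefore cover the part of the ribosome that this array can assign to single genes.

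The RNA came from B cells sorted from the spleens of female C57BL/6/J (B6) and NOD/ShiLtJ (NOD) mice at 7 weeks of age, with 8 mice in a pool. B6 is a common inbred strain, and NOD mice develop autoimmune diabetes without treatment. The labels name no transgene, mutation or treatment. CD3+ and CD11b+ cells were depleted first, and CD23, CD93, B220, CD24, CD21/35 and IgM then served to sort 6 subsets. Their names are T1, T3, T2FO and T2MZ for transitional stages, FO for follicular and MZ for marginal zone cells. The sort was done in 2 independent experiments, and the replicate number on a label was taken to mark the experiment, which the labels do not state. This gives 24 arrays in 12 groups from 4 pools. In bulk RNA of this kind, fewer cells of a type and less RNA per cell cannot be told apart.

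Each ribosome has a small subunit, where the messenger is decoded, and a large subunit, where the peptide bond is made. The messengers of most ribosomal proteins begin with a run of pyrimidines, the 5' terminal oligopyrimidine or TOP motif, through which their translation responds together to growth signals. Ribosomal protein genes are also copied all over mammalian genomes as processed pseudogenes, so that short array probes may detect several of them. Of the members, 41.2% had the x_at suffix, which marks probe sets with probes that match other transcripts as well, against 5.83% of all probe sets with 1 gene. Member values are uncertain in that respect. The transcript starts of some of the members that the results below turn on are printed here to show this shared feature and its limits. Each is the RefSeq sequence (GRCm38.p6) of 15 bases before and 15 bases from the annotated start, read 5' to 3' on the gene's strand, and capitals mark the longest run of pyrimidines (C or T).

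Rps9, chr7:3704026-3704055 on the plus strand: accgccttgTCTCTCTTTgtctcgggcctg
Rps6, chr4:86857353-86857382 on the minus strand: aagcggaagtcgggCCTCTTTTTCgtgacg
Rps24, chr14:24490663-24490692 on the plus strand: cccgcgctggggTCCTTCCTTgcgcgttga
Rps10, chr17:27635230-27635259 on the minus strand: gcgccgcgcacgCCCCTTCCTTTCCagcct
Rpl38, chr11:114668565-114668594 on the plus strand: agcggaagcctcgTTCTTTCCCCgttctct
Rpl14, chr9:120571502-120571531 on the plus strand: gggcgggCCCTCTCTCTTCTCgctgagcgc
Rps15, chr10:80292416-80292445 on the plus strand: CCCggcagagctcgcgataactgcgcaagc
Rpl37a, chr1:72711245-72711274 on the plus strand: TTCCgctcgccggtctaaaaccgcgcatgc
Rpl41, chr10:128549154-128549183 on the minus strand: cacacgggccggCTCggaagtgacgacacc
Rps3, chr7:99483695-99483724 on the minus strand: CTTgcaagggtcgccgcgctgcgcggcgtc

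The upper 6 of these windows hold long pyrimidine runs across or near the start and the lower 4 do not. Not printed are another annotated start of Rps24, at chr14:24490738-24490767 with a longest run of 4, and that of Rpl11, with a longest run of 3. Of the 44 member genes, 39 had an entry in the table of starts. A pyrimidine run of 8 or more bases lay in this window in 18 of them (46.2%), against 13.9% of 27025 genes. The letters CTTTC, chosen after the sequences were seen, lay on the gene's strand in 11 of 39 (28.2%) against 4.8% of all genes, and on the other strand in 0 against 4.21%. These are descriptions of an annotated start, and a window without such a run says nothing about the start that the cells used.

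The deposited values are log values, taken as log2, and the median of each probe set over the 24 arrays is 0. They show how far an array lies above or below a probe set's middle value, and no expression level or comparison of levels between genes can be had from them. Before the members were compared, the arrays were checked. The 5' probe set of β-actin, a control at the end of the messenger that poly(A)-primed labelling reaches last, split the B6 arrays. It lay between -4.04 and -3.27 in 6 of them (1 of each subset), between -1.36 and 0.474 in the other 6, and between -0.538 and 0.795 in the 12 NOD arrays. The 3' control of β-actin spanned only -0.373 to 0.214. The 3' control of Gapdh, however, was low on the same 6 B6 arrays, at -1.579 to -0.468. It lay at -0.077 to 0.401 on the other 6 B6 arrays and at -0.055 to 0.466 in NOD. The name low 5' signal therefore refers to the β-actin control, and signal on these 6 arrays was not low at 5' ends only. Strain differences that the text turns on are therefore also given without those 6 arrays, and the B6 subsets are given on each kind of array; the part of 5' signal was not tested. Transcripts of the sort markers went against some NOD labels: Cd93, the marker of transitional cells, was at -1.89 on both arrays labelled NOD T1 and at 2.92 and 3.19 on those of B6 T1. The NOD groups are therefore named by label only. B cell genes had array medians of -0.24 to 0.34 and T cell genes of -0.29 to 0.49. Myeloid genes stood out at 1.60 and 1.39 on the NOD FO arrays and at 1.29 on 1 B6 MZ array, NK cell genes at 1.99 on 1 B6 T2FO array, plasma cell genes at 1.06 and 1.11 on the NOD T2FO arrays, and cell cycle genes at 1.99 on 1 B6 T3 array and 1.00 on 1 B6 T2MZ array. Cell cycle genes were low at -1.06 and -0.86 on the NOD T2MZ arrays and at -0.90 on 1 B6 FO array. Since values are centred, no marker can be shown to be absent.

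Taken as a set, the ribosomal protein probe sets tended to be lower on the B6 arrays of low 5' signal. The median over the 97 probe sets ran from -0.402 to -0.087 on those 6 arrays (median -0.183) and from -0.139 to 0.10 on the other 6 B6 arrays (median -0.012). On the NOD arrays it ran from -0.138 to 0.202 (median 0.085). The last 2 ranges overlapped over most of their length, and the ends of the first overlapped both. The median over all probe sets moved only between -0.039 and 0.060 over the 24 arrays.

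**Figure D1:**
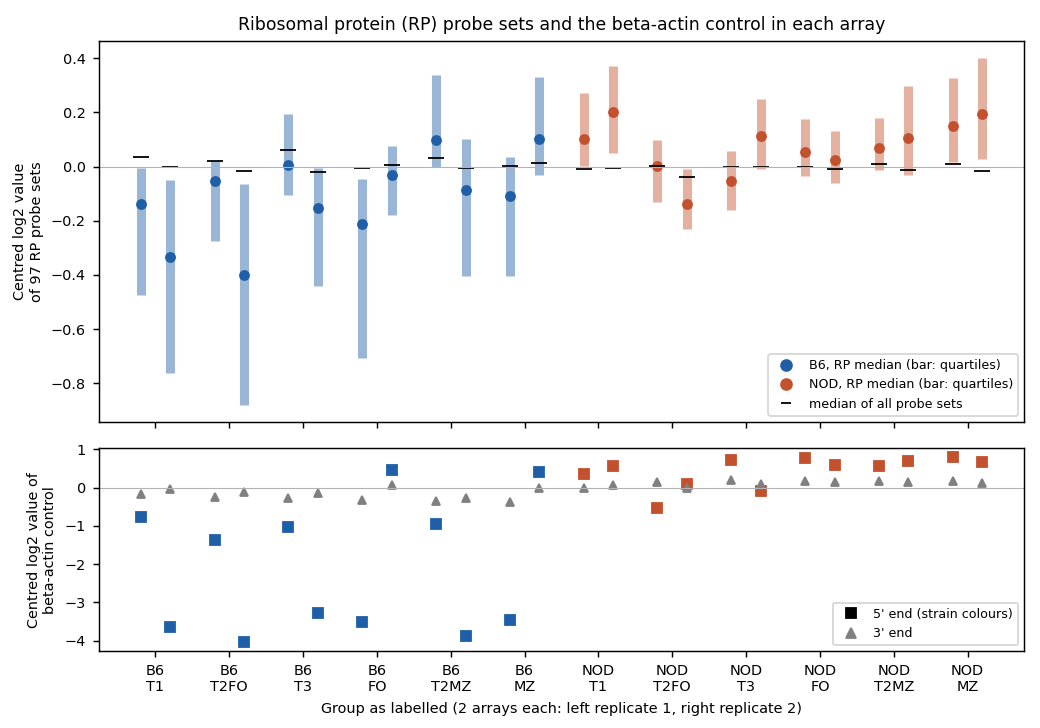
Upper panel: median (point) and quartiles (bar) of the centred log2 values of the 97 ribosomal protein probe sets on each of the 24 arrays, with the median of all probe sets as a dash. Lower panel: centred log2 value of the 5' (square) and 3' (triangle) β-actin controls on the same arrays; the 6 B6 arrays whose 5' control is at -3.27 or below have set medians of -0.087 or below.

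Within B6 the arrays of one subset could be set against each other, because each subset had 1 array of low and 1 of high 5' signal. The median of the members' own differences, high minus low array, was above 0 in 6 of 6 subsets: 0.174 in T1, 0.343 in T2FO, 0.214 in T3, 0.185 in FO, 0.315 in T2MZ and 0.291 in MZ. Averaged over the 6 pairs, 74 of 97 members were higher on the high array with a median difference of 0.255, while over all probe sets the median was 0.056 and 59.3% were higher. The difference was not even among probe set designs: its member median was 0.12 for the 28 plain at probe sets, 0.51 for the 26 a_at, 0.77 for the 3 s_at and 0.21 for the 40 x_at. Individual members moved much further in both directions. Rps18 1448739_x_at was higher on the high array by 1.97 ± 0.22 (SD, n = 6 pairs) and Rps19 1449243_a_at by 1.56 ± 0.20, both in 6 of 6 pairs, whereas Rps24 1455195_at was lower by 1.84 in the mean over pairs and in 6 of 6. Replicate arrays of B6 accordingly differed more at the members (within-group SD 0.546) than those of NOD (0.249), and so they did over all probe sets (0.448 and 0.261). No test was made of this pattern, since the array pairs were formed from the data.

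Averaged over the 6 subsets, NOD values lay above B6 values at most members. The median difference over the 97 was 0.163, with 67 members positive and 30 negative, against a median of -0.03 over all probe sets, of which 41.7% were positive. The question of a strain difference was put to limma on 4 pool means, 2 per strain, and adjusted over all probe sets with the Benjamini-Hochberg method; below 0.05 a probe set counts as called. By this rule 9 of 97 members were called, 7 higher and 2 lower in NOD, where the background over all probe sets was 3.02% (1.64% higher and 1.38% lower). The 7 higher ones belonged to Rps15, Rps10, Rps24 and Rpl37a, and the 2 lower ones to Rps9 and Rps3. The 2 subunits had medians close to each other, 0.159 for the small and 0.186 for the large, with 5 higher and 2 lower among the small and 2 higher among the large; without the 6 B6 arrays of low 5' signal the medians were 0.146 and 0.075. Over all 97, without those arrays, the member median was 0.082. That fit takes the remaining 18 arrays as independent and called 29 members (24 higher, 5 lower) where the background was 21.6% (10.4% higher, 11.2% lower), so its count compares with the 44 called when all 24 arrays are taken as independent (background 20.3%) and not with the 9. By number, pool 1 of B6 averages 4 arrays of high and 2 of low 5' signal and pool 2 the reverse. With the numbers of B6 FO and MZ exchanged, which puts the 6 low arrays into 1 pool, Rps9 1434624_x_at was the 1 member called. The share called over all probe sets in that fit is not given. Counts below from alternative fits without such a share show how calls depend on the setting, not whether members stand out. Leaving out a pool leaves 1 pool mean in that strain, which is then assumed to vary like those of the other strain. The member median was 0.116 to 0.247 in these 4 fits.

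**Figure D2:**
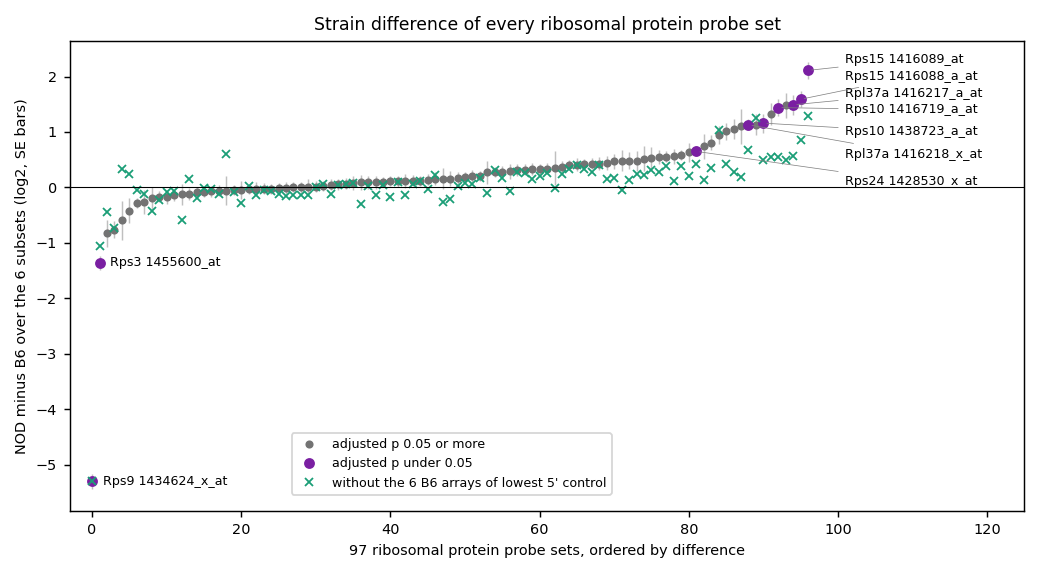
NOD minus B6 difference over the 6 subsets (log2, with standard errors from limma on 4 pool means) for each of the 97 probe sets, ordered by size; called probe sets are purple and named, and crosses give the difference without the 6 B6 arrays of lowest 5' control. Rps9 1434624_x_at stands at -5.30 in both, while the crosses of the higher members mostly lie closer to 0.

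Rps9, a protein of the small subunit, held the largest strain difference and did so on a single probe set. Its probe set 1434624_x_at ranged from 2.04 to 2.47 (median 2.17) over the 12 B6 arrays and from -3.87 to -2.04 (median -3.06) over the 12 NOD arrays. The strains did not overlap, and this was the only member of which that was true, with 0 members whose NOD arrays all lay above the B6 arrays; over all probe sets 0.89% lay wholly lower and 1.51% wholly higher in NOD. NOD was lower by 5.30 ± 0.14 (SE, limma, adjusted p = 0.00444), and the difference was -5.30 without the 6 arrays of low 5' signal too. It was called in each subset, with differences of -4.84 in T1, -5.50 in T2FO, -4.80 in T3, -5.85 in FO, -5.41 in T2MZ and -5.39 in MZ (SE 0.38 each).

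The other 2 probe sets of Rps9 did not follow. Rps9 1433689_s_at ran from -2.20 to 0.32 in B6 (median -1.01) and from -0.26 to 0.66 in NOD (median 0.35), so that NOD was the higher strain by 1.33 ± 0.20 (limma, adjusted p = 0.0533), or by 0.54 without the 6 arrays. Within B6 it was higher on the array of high 5' signal by 1.56 ± 0.22 (SD, n = 6 pairs). Rps9 1426958_at differed by 0.16 ± 0.19 (limma, adjusted p = 0.784), and by -0.26 without the 6 arrays. Differences for this gene thus spanned 6.62 between its probe sets, against at most 1.48 for any other member gene with several probe sets. With all arrays, 1434624_x_at alone of the 3 was called lower in NOD over the subsets. Without the 6 arrays of low 5' signal, which leaves 1 B6 array in each subset, Rps9 1426958_at differed by -1.24 in T2FO and -1.31 in FO. In T2FO the B6 array kept read 0.32 and the one left out -0.85, with NOD at -1.18 and -0.67. In FO these were 1.08 and 0.31, with NOD at -0.27 and -0.20. The sequences of its probes were not used.

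**Figure D3:**
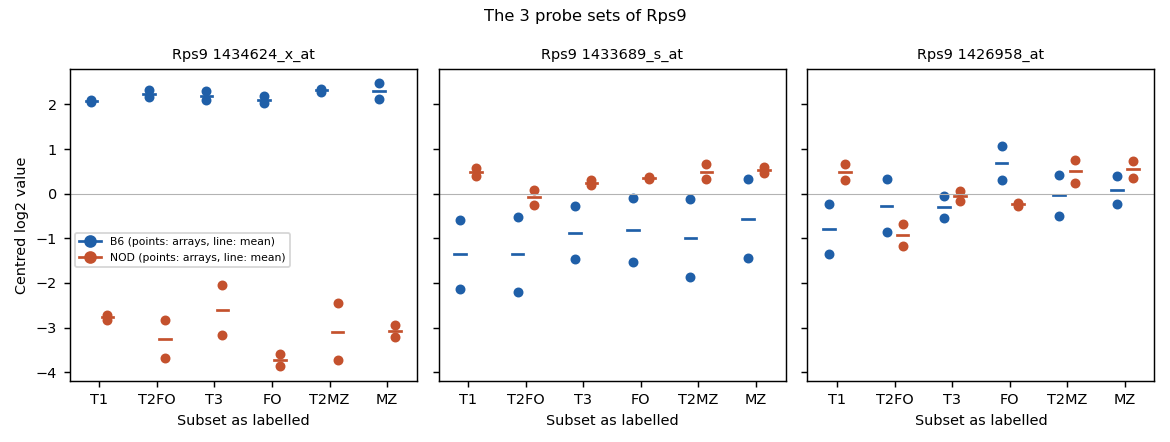
Centred log2 values of the 3 Rps9 probe sets by subset as labelled, with each array as a point and the group mean as a line (B6 blue, NOD orange). The B6 arrays of 1434624_x_at all lie at 2.04 or above and the NOD arrays at -2.04 or below, whereas the strains overlap on 1426958_at.

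Rps15, also of the small subunit, was the most raised of the members in NOD, and both of its probe sets were called. Rps15 1416089_at read -1.89 and -2.64 on the B6 T1 arrays, -1.72 and -3.57 on T2FO, -1.57 and -2.07 on T3, -2.35 and 0.42 on FO, -1.15 and -2.77 on T2MZ, and -1.61 and 0.85 on MZ. The NOD arrays lay between -0.30 and 0.98 (median 0.37). In B6, 10 of 12 arrays lay below every NOD array, and the 2 exceptions were FO array 2 and MZ array 2, which had the highest 5' control of B6. The difference was 2.11 ± 0.15 (limma, adjusted p = 0.0178), and 1.28 without the 6 arrays of low 5' signal. Rps15 1416088_a_at differed by 1.59 ± 0.14 (adjusted p = 0.0229), or 0.85 without them. Beside Rps9 1434624_x_at, Rps15 1416089_at was the only probe set that lay more than 3 interquartile ranges outside the quartiles of all members.

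Rps10 and Rpl37a showed the same layout. Rps10, at the head of the small subunit, had 6 probe sets, all positive and 2 called: 1416719_a_at at 1.44 ± 0.15 (limma, adjusted p = 0.0282) and 1438723_a_at at 1.16 ± 0.17 (adjusted p = 0.0487). Without the 6 arrays they stood at 0.54 and 0.49. The other 4 probe sets of Rps10 spanned 0.06 to 1.01. Rpl37a, a zinc-binding protein of the large subunit, was called on 1416217_a_at (1.49 ± 0.18, adjusted p = 0.0369) and 1416218_x_at (1.13 ± 0.10, adjusted p = 0.0228; 0.67 without the 6 arrays), and its remaining probe set, 1460543_x_at, differed by 0.08. On 1416217_a_at the B6 arrays of high 5' signal exceeded their partners by 1.87 ± 0.64 (SD, n = 6 pairs), and the difference without the low arrays was 0.56. For these members low B6 values and low 5' signal lay on the same arrays, and the part of the signal was not tested. Rps24 1428530_x_at, the remaining higher member, differed by 0.65 ± 0.09 (limma, adjusted p = 0.0477), or by 0.42 without the 6 arrays.

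Rps3, a small subunit protein that also acts as an endonuclease, went the other way on 1 of its 3 probe sets. Rps3 1455600_at ran from -0.02 to 1.65 in B6 (median 0.88) and from -1.04 to 0.02 in NOD (median -0.49), and 11 of 12 B6 arrays lay above every NOD array. NOD was lower by 1.36 ± 0.13 (limma, adjusted p = 0.0242), and the difference was -1.06 without the 6 arrays of low 5' signal. This probe set was itself lower on B6 arrays of high 5' signal, by 0.59 in the mean over pairs and in 6 of 6. The other 2 probe sets of Rps3, 1435151_a_at and 1447563_at, differed between the strains by under 0.01 in size.

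Rpl41, a very short and basic protein of the large subunit, was not called over the subsets. Its 2 most raised probe sets did not fall with the 5' signal. On Rpl41 1433530_at the B6 arrays ran from -0.98 to 0.01 and the NOD arrays from -0.11 to 1.28, and 10 of 12 B6 arrays lay below every NOD array. The difference was 1.13 ± 0.19 (limma, adjusted p = 0.0649) with all arrays and 1.26 without the 6 of low 5' signal. Rpl41 1454639_x_at read 0.94 ± 0.16 (adjusted p = 0.0648) and 1.03. Within B6 the high arrays differed from the low ones by -0.26 ± 0.54 (SD, n = 6 pairs) on 1433530_at. On 1454639_x_at they differed by -0.18 ± 0.49. On both, the difference was negative in T1, T2FO and T3 and positive in FO and MZ, so no direction by 5' signal held across pairs. By replicate number, array 1 read below array 2 in every B6 subset on 1433530_at, and in all but T2MZ on 1454639_x_at. The part of the pool was not tested. Of the remaining probe sets of Rpl41, 1422623_x_at differed by 0.81 (0.35 without the 6 arrays) and 1455578_x_at by 0.55 (0.28).

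**Figure D4:**
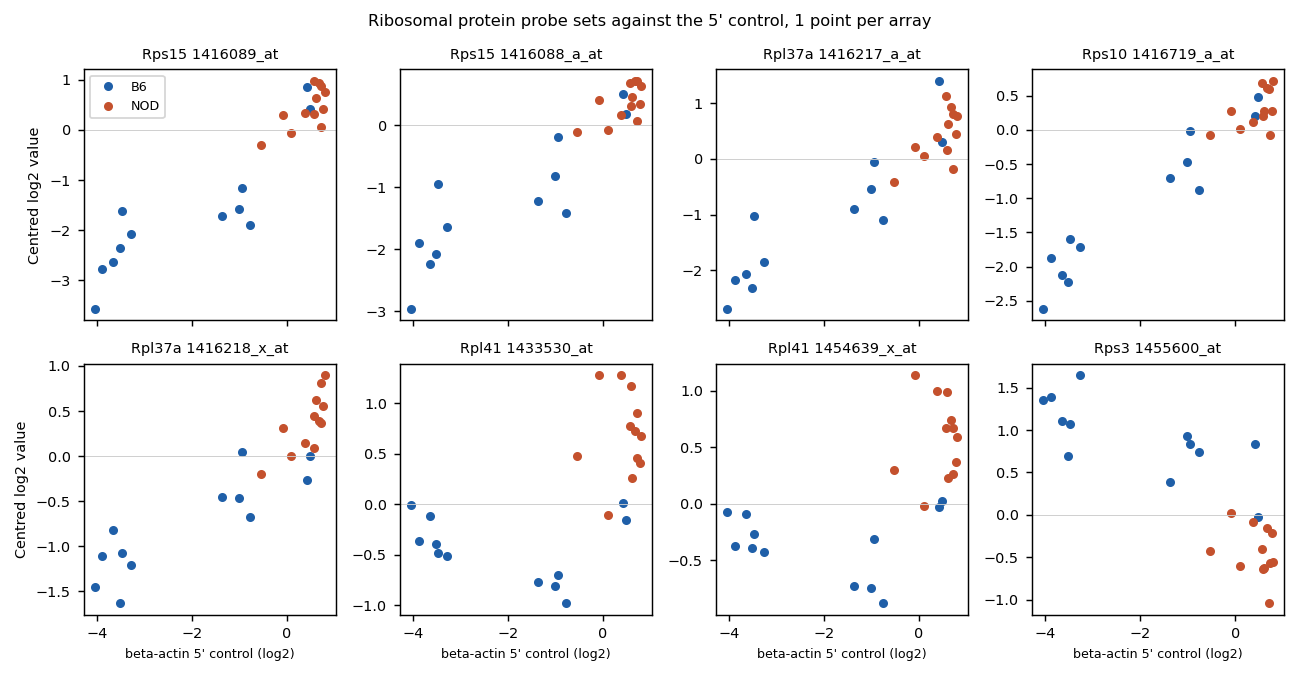
Centred log2 value of 8 member probe sets (vertical) against the 5' β-actin control (horizontal, log2), with 1 point per array (B6 blue, NOD orange). Rps15, Rps10 and Rpl37a read below 0 on the 6 B6 arrays with a control at -3.27 or below and come close to or within the NOD values on the 2 B6 arrays above 0; on the Rpl41 panels the 6 low arrays lie within the range of the other B6 arrays.

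Of the members named for a role of their own, Rps3 was called as described, and those that follow were not called over the subsets with all arrays. Among those tied to p53 or to anaemia, Rpl11, which binds Mdm2, differed by 0.41 (limma, adjusted p = 0.163; 0.40 without the 6 arrays), Rps19 by 1.05 (adjusted p = 0.0633; 0.27 without the 6 arrays) and Rps14 by 0.34 and 0.43 (0.21 and 0.27). Rpl22, whose loss affects lymphocyte development, differed by 0.55 on 1416603_at (limma, adjusted p = 0.0765, and 0.39 without the 6 arrays). The 3 probe sets of Rpl22 spanned 0.09 to 0.55. Rpl38, known for selective translation in the embryo, differed by 0.43 (limma, adjusted p = 0.147, and 0.40 without the 6 arrays). The P-stalk proteins, which recruit elongation factors, differed by 0.56 for Rplp0 and 0.63 for Rplp2, and without the 6 arrays by 0.11 and 0.20. Of the paralogs, Rpl39l at -0.06 stood below its partner Rpl39 at 0.20, and Rps27l at 0.48 to 0.53 stood above Rps27 at 0.27. Rpl3l stood at 0.32 with no partner among the members. Rps4x differed by -0.07 and -0.09. None of these was called.

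The remaining members were spread around the set median, again with unequal probe sets of one gene. Rps18, at the head of the small subunit, had 6 probe sets with differences of 0.01 to 1.48, none called. Its highest, 1448739_x_at (limma, adjusted p = 0.0563), read 0.50 without the 6 arrays of low 5' signal. Rpl27 spanned 0.33 to 1.10 over 3 probe sets and Rpl13a -0.03 to 0.74 over 4. A few probe sets ran against the set: the 4 of Rps20 were all negative (-0.42 to -0.06), Rpl27a 1437729_at stood at -0.83, and Rps24 1455195_at at -0.59. On Rps20 1421935_at the difference turned from -0.06 to 0.61 without the 6 arrays, and on Rps24 1455195_at from -0.59 to 0.34; both read lower on the B6 arrays of high 5' signal, by 1.34 and 1.84 in the mean over pairs. Rps28 (3 probe sets, -0.05 to 0.10), Rps7 (2, -0.01 to 0.17) and Rpl7 (3, 0.11 to 0.34) were close to level between the strains, none of them called.

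Among subsets, the arrays labelled T1 held the most called members. In T1, 13 of 97 members were called, 12 higher and 1 lower in NOD, where the background was 6.31% (3.80% higher, 2.51% lower), and the member median was 0.49 against -0.05 over all probe sets. Rps24, a small subunit protein, gave 4 of them from its 6 probe sets. Not called were 1436500_at (B6 0.22 and 0.0, NOD -0.48 and 0.17) and 1455195_at (B6 -1.67 and 0.78, NOD 0.38 and 0.31). Rps24 1436064_x_at read -0.64 and -0.62 on the B6 T1 arrays and 0.37 and 0.33 on the NOD ones, a difference of 0.98 ± 0.15 (limma, adjusted p = 0.000727). Rps24 1428530_x_at differed by 1.5 ± 0.25 (adjusted p = 0.00149). Rpl11 read -0.63 and -0.52 in B6 and 0.61 and 0.37 in NOD, and differed by 1.06 ± 0.15 (adjusted p = 0.000367). On Rps24 1436064_x_at, on Rps24 1428530_x_at and on Rpl11 both NOD arrays lay above both B6 arrays.

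Further called members of T1 were Rpl38 (0.87 ± 0.17, adjusted p = 0.00436, limma), Rpl7 1426162_a_at (0.75), Rpl22 1416603_at (0.75), Rps18 1421838_at (0.76), Rps6 1416142_at (0.55) and Rpl41 (1.57 and 1.32). Rps9 1434624_x_at was the lower one. Sort markers differed in the same comparison: Cd93 1419589_at was lower by 4.94 ± 0.21 (adjusted p = 7.51e-09) and Cr2 1425289_a_at, the complement receptor CD21, higher by 2.92 ± 0.24 (adjusted p = 3.42e-06) on the arrays labelled NOD T1. The part of cell stage in the T1 differences of the members was not tested. Without the 6 B6 arrays of low 5' signal, with 1 B6 array left in T1, 10 of these 13 stayed called, and the exceptions were Rps18 1421838_at (0.69), Rps24 1456628_x_at (0.88) and Rps6 1416142_at (0.39). With B6 T1 array 2 left out alone, which had the low 5' signal, the member median was 0.278 and 9 members were called; 7 were called without B6 T1 array 1, 6 without NOD T1 array 1 and 8 without NOD T1 array 2.

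The other 5 subsets had few called members. In T3, 4 were called (background 1.72%), namely Rps9 1434624_x_at, Rps3 1455600_at at -1.57 ± 0.35, and Rpl41 at 1.53 and 1.29. In T2MZ, 5 were called (background 2.73%): beside Rps9 these were Rps3 1455600_at at -1.95 ± 0.35, Rpl14 1422128_at at -1.68 ± 0.30, Rps6 1416142_at at -0.66 ± 0.15 and Rpl41 1433530_at at 1.57 ± 0.34. Rpl14, of the large subunit, read 1.16 and 1.13 on the B6 T2MZ arrays and -0.66 and -0.42 on the NOD ones (limma, adjusted p = 0.00605). Without the 6 B6 arrays of low 5' signal, 3 of the 4 in T3 and 4 of the 5 in T2MZ stayed called; Rps3 read -1.20 in T3 (limma, adjusted p = 0.0514) and Rps6 -0.73 in T2MZ (adjusted p = 0.054). Sort markers differed here as well: Cd93 1419589_at was at -2.53 in T3, -2.25 in T2MZ and -2.83 in T2FO, Ighm 1452535_at at 1.48 in FO and Fcer2a 1422122_at, which encodes CD23, at 2.71 in MZ. Cell cycle genes had 4 of 21 probe sets called in T2MZ, all lower in NOD (list median -1.62), and 3 in FO, all higher (1.07). Myeloid genes had 7 of 14 called in FO, all higher (2.54), and plasma cell genes 5 of 14 in T2FO, all higher (1.56). The part of these markers in the members' differences was not tested. Rps9 1434624_x_at was the 1 member called in T2FO, in FO and in MZ, where the backgrounds were 2.58%, 2.88% and 2.52%. Left-out arrays moved these counts: in T2MZ 2 members were called without any 1 of the 4 arrays, in T3 2 without B6 array 1 and 1 without B6 array 2, in T2FO 3 without B6 array 1 and 2 without NOD array 1, in FO 3 without B6 array 2, and in MZ 2 without B6 array 1. Member medians in T2FO, T3, FO, T2MZ and MZ were 0.20, 0.13, 0.21, 0.08 and 0.17.

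The B6 subsets could be compared without the strain. The set ran lowest in T1 and T2FO and highest in T2MZ and MZ, and this held on both kinds of array. On the 6 arrays of low 5' signal the member median was -0.402 in T2FO, -0.332 in T1, -0.211 in FO, -0.154 in T3, -0.107 in MZ and -0.087 in T2MZ. On the 6 of high signal it was -0.139 in T1, -0.054 in T2FO, -0.032 in FO, 0.007 in T3, 0.096 in T2MZ and 0.10 in MZ. Arrays of one kind were not level in 5' signal. On the high arrays the β-actin 5' control was 0.47 in FO and 0.42 in MZ, and -1.36 to -0.77 in the other subsets. Within each kind FO and MZ also carried the other replicate number. The part of 5' signal and of experiment in this order was not tested. By group means, 77 of the 97 members had their highest B6 value in T2MZ (37) or MZ (40), and 67 had their lowest in T1 (39) or T2FO (28). Single members rarely passed a test.

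Marginal zone against follicular cells gave this pattern on 2 groups with the same layout of 5' signal. T2MZ and T2FO shared a layout as well. The member median was 0.19 in MZ minus FO with 78 of 97 positive, where all probe sets had 0.002 and 50.4% positive. On the pair of low arrays it was 0.163 (77 positive) and on the pair of high arrays 0.137 (70 positive). Markers of other cells moved in MZ minus FO too: the median was 0.47 for myeloid genes with 1 of 14 probe sets called (Mpeg1 at 3.14), 0.53 for NK cell and 0.49 for cell cycle genes, 0 called in either. The array medians of myeloid genes were 1.29 and -0.20 in MZ and 0.36 and -0.37 in FO, and the part of these cells was not tested. For T2MZ minus T2FO the same pairs gave 0.347 (80 positive) and 0.260 (86 positive). By limma 0 members were called in MZ against FO (background 0.564%) and 0 in FO against T2FO (background 0.333%). In MZ against T2MZ (background 0.0577%) and in T2FO against T1 (background 0%) 0 were called as well. With the replicate number as a block, Rps6 1416142_at was called in MZ against FO (0.69 ± 0.14, limma, adjusted p = 0.0341) and Rpl35 1454833_at in FO against T2FO (-1.25 ± 0.27, adjusted p = 0.0443).

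Across all 6 B6 subsets, limma's F test called 2 of 97 members, Rps24 1436064_x_at (adjusted p = 0.0255) and Rps6 1416142_at (adjusted p = 0.0324), where the background was 1.41%. Rps6, the small subunit protein that S6 kinases phosphorylate, read 0.02 and -0.29 in T1, 0.07 and -0.24 in T2FO, 0.34 and 0.40 in T3, -0.14 and -0.20 in FO, 0.57 and 0.44 in T2MZ, and 0.50 and 0.55 in MZ. T3, T2MZ and MZ lay above T1, T2FO and FO with no overlap of arrays. Rps24 1436064_x_at read -0.64 and -0.62 in T1 and -0.56 and -0.68 in T2FO, and no other B6 array of it was below -0.33. It read -0.12 and -0.33 in T3, -0.13 and -0.06 in FO, -0.04 and 0.03 in T2MZ, and -0.04 and 0.40 in MZ. The T1 and T2FO arrays were thus the 4 lowest. Leaving out single B6 arrays ended the call of Rps6 in 8 of 12 cases (adjusted p 0.0507 to 0.0981) and that of Rps24 in 5 of 12, both T1 arrays, both T2FO arrays and FO array 2 (0.0515 to 0.0951). With the replicate block 5 members were called by limma, Rpl11 (adjusted p = 0.0157), Rpl14 (adjusted p = 0.0367) and Rpl38 (adjusted p = 0.0412) joining those 2. The share over all probe sets with this block is not given.

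Among the 6 NOD groups 0 of 97 members were called by the F test (limma, background 1.77%). The lowest unadjusted p-values of that test were 0.002 for Rps6 1416142_at, 0.0109 for Rpl11 and 0.03 for Rps9 1426958_at. With the replicate block the first 2 were called (adjusted p = 0.0489 and 0.0339). The set median was highest on the arrays labelled MZ (0.149 and 0.194) and T1 (0.101 and 0.202) and lowest on those labelled T2FO (-0.138 and 0.002). By group means, 40 members had their highest NOD value in MZ and 29 in T1, and 67 had their lowest in T2FO. The T2FO arrays were also those with the high plasma cell genes.

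Rps6 was the 1 member called for a subset pattern that differed between the strains, a share no larger than the background. In limma's F test of the strain by subset interaction 1 of 97 members was called (background 1.35%), Rps6 1416142_at with adjusted p = 0.0358; with the replicate block Rpl11 was called too (adjusted p = 0.0316). The NOD arrays of Rps6 1416142_at read 0.29 and 0.53 in T1, -0.23 and -0.22 in T2FO, -0.45 and -0.08 in T3, -0.02 and -0.08 in FO, -0.24 and -0.08 in T2MZ, and 0.26 and 0.26 in MZ. Both NOD arrays lay above both B6 arrays in T1 and FO, and both lay below in T3, T2MZ and MZ. Leaving out single arrays ended the call in 20 of 24 cases (adjusted p 0.0504 to 0.155), so it rests on nearly every array. The sort markers that go against NOD labels enter the same comparison, and their part in it was not tested. The second member probe set, Rps6 1453466_at, was not called in any comparison. Further Rps6 probe sets are annotated also to the pseudogene Rps6-ps4 and are among the 110 that were set aside. Of those 110, 0 were called among the B6 subsets, and their interaction test is not given.

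**Figure D5:**
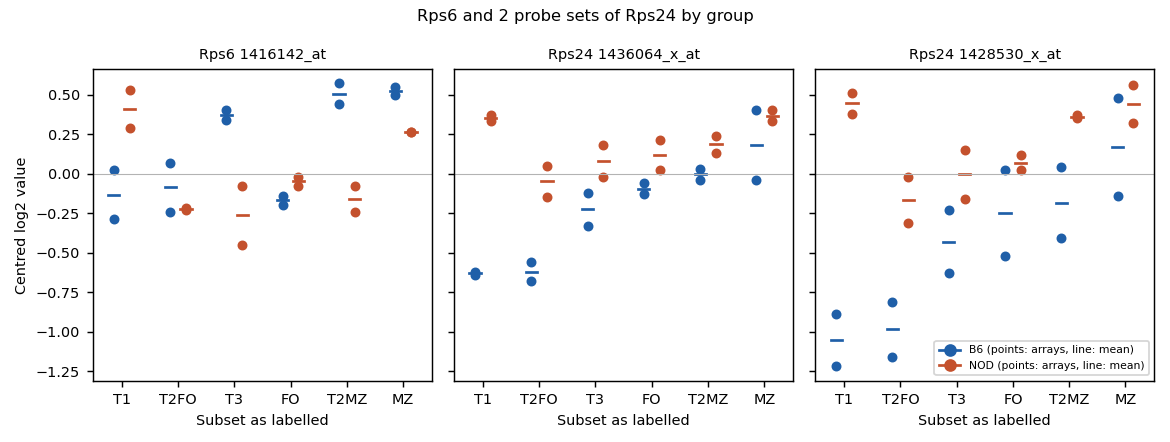
Centred log2 values of Rps6 1416142_at and of 2 probe sets of Rps24 by subset as labelled, with each array as a point and the group mean as a line (B6 blue, NOD orange). In B6, Rps6 is highest in T3, T2MZ and MZ and Rps24 lowest in T1 and T2FO; the NOD arrays labelled T1 lie above those of B6 on all 3 probe sets.

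Over the subsets, few genes that work with the ribosome were called, where the background was 3.02%. Of 47 probe sets of translation factors and other TOP transcripts, 2 were called over the subsets, both higher in NOD, with a list median of 0.04: Fau, which encodes a ubiquitin-like protein fused to the ribosomal protein eS30, at 1.46 ± 0.14 (limma, adjusted p = 0.0246), and Naca, of the nascent polypeptide-associated complex, at 0.67 ± 0.09 (adjusted p = 0.0443). Of 62 probe sets of ribosome biogenesis genes, 1 rose and 1 fell, with a median of -0.07. These were Ubtf, a factor of ribosomal RNA transcription, at 2.52 ± 0.23 (adjusted p = 0.024) and Polr1c, a subunit of RNA polymerases I and III, at -1.78 ± 0.22 (adjusted p = 0.039). None of the 32 probe sets of regulators of ribosome production (Myc, the mTOR pathway, p53) was called, and their median was 0.05. Mitochondrial ribosomal proteins, measured by 156 probe sets for 76 genes, had 2 higher, 2 lower and a median of -0.02. By subset the biogenesis genes moved more: 7 of 62 probe sets were called in T2FO (1 higher, 6 lower, median -0.40, background 2.58%) and 5 in T1 (4 higher, 1 lower, background 6.31%). Translation factors had a median of 0.25 in T1 with 0 called.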

How the data were processed

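The 24 Affymetrix arrays were grouped by strain and subset from their labels. The submitters' processing notes name RMA. The values the authors deposited are log values by their range and were taken as log2; the log base and the RMA version are not given in the sources used here. RMA sets all arrays to one distribution, so a shift common to all genes cannot be seen. Each probe set was found centred on its own median (at most 5e-07 from 0). Of 45101 probe sets, 64 controls were left out. Gene names came from the platform annotation, and 34741 of 34945 single-gene probe sets matched RefSeq (GRCm38.p6).

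Differences were fitted with limma 3.58.1 in R 4.3.3 over all 45037 probe sets, with eBayes and Benjamini-Hochberg adjustment in each of 14 comparisons. Comparisons of groups used 1 mean per group over the 24 arrays, and the strain difference over subsets used 4 pool means. Errors are standard errors unless given as SD. The fit was tested on simulated data. Figures used matplotlib 3.10.9. With 2 arrays a group, p-values of group comparisons measure the spread between the arrays of a group, shared over the 12 groups. They take the 24 arrays as independent, although deviations correlated between subsets as given below. With 2 pools a strain, p-values over subsets measure little more than the spread between those pools. Each B6 pool mean mixes arrays of low and high 5' signal, which narrows that spread for probe sets that follow the signal.

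The members and gene lists were chosen with earlier results of these data known. Named probe sets are those of Rps9, the called members with the largest differences, outlying members, paralogs, members with a role of their own, and up to 3 called probe sets per other list; a few more were named after their values were seen (among them Rpl41 over subsets, Rpl27a, Rps18 and Rps24 1455195_at).

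Per the design text, 1 pool per strain was sorted into all subsets in each of 2 experiments; same-numbered arrays of a strain were taken as 1 pool, which the labels do not state. Deviations from group means correlated at 0.71 to 0.87 within T1, T2FO, T3 and T2MZ and between FO and MZ of B6, at -0.62 to -0.37 between these sets, and at -0.04 to 0.51 in NOD. The 5' control splits the B6 arrays the same way. Alternatives covered scaling, gene summaries, variance models, blocks, a 5' covariate and left-out arrays. A filter on low values was not run, since centred values hold no level.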

Additional observations from a re-analysis of the deposited data

Results flagged for a closer look

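One result met the criteria for a second look. The effect of strain on Rps6 1416142_at differed between subsets by the interaction test (limma's F test, adjusted p = 0.0358). NOD minus B6 was 0.55 ± 0.15 on the arrays labelled T1 and -0.66 ± 0.15 on those labelled T2MZ, each with 2 arrays per strain and no overlap. The alternatives tried gave the interaction adjusted p-values from 0.00871 to 0.155, and it lost its call in 21 of 31. Groups of 2 arrays were too small for a check of single outlying arrays.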

How the results depend on the processing

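Among the differences named by the rule, Rps9 1426958_at over subsets (0.16) was the one whose direction turned: it read -0.49 with the 5' covariate, -0.26 without the 6 B6 arrays of lowest 5' control (an alternative chosen after seeing the data), and -0.03 to 0.35 when a pool was left out, with 2 of those 4 fits below 0. Rps20 1421935_at and Rps24 1455195_at, named after their values were seen, turned as well without the 6 arrays (to 0.61 and 0.34). Rps9 1434624_x_at over subsets stayed between -5.49 and -5.16 in 13 alternatives and lost its call in 2 (adjusted p up to 0.103, limma). Counts of called members moved much more, and the cause was not tested. The share called over all probe sets moved too. It was 3.02% with the 4 pool means, 20.3% with 24 independent arrays and 21.6% without the 6 low arrays. That share is not given for the other alternatives in this section. Their counts show how calls depend on the setting, not whether members stand out. The 9 called over subsets became 44 with 24 independent arrays, 20 with the 5' covariate and 29 without the 6 low arrays. The last 2 fits also take arrays as independent (18 without the low arrays), so they compare with the 44. With probe sets averaged 4 genes were called, and without B6 FO and MZ array 2 it was 1 member. The member median of 0.163 became 0.047, 0.082 and 0.246 with the covariate, without the 6 arrays and without B6 FO and MZ array 2, and 0.116 to 0.247 when a pool was left out.

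With the 5' covariate 5 members were called in T2FO, 7 in T3, 3 in FO, 11 in T2MZ, 3 in MZ, 9 among the B6 subsets, 2 among the NOD groups, 2 in FO against T2FO, 1 in MZ against FO and 3 in the interaction. Without the 6 low arrays it was 23 in T1, 5 in T2FO, 3 in FO and 3 in MZ. With only the arrays compared, which leaves a spread from few arrays, it was 1 in T1, 0 in T2FO, T3 and T2MZ, 0 among the B6 subsets and 1 among the NOD groups. With probe sets averaged per gene 8 genes were called in T1, 1 in T3, 3 in T2MZ, 1 among the B6 subsets and 0 in the interaction. With the most variable probe set per gene it was 5 in T1, 3 in T2FO, 0 among the B6 subsets and 0 in the interaction. Quantile normalization gave 0 among the B6 subsets and 0 in the interaction, arrays centred on their median gave 2 in T2FO, and a pool as a random block gave 2 in T2FO, 6 among the B6 subsets, 1 among the NOD groups and 1 in MZ against FO.

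With the replicate block 1 member was called over subsets, where the number pairs unrelated pools, and 2 in T2FO. Within strains the block called 5 among the B6 subsets, 2 among the NOD groups, 1 in FO against T2FO, 1 in MZ against FO and 2 in the interaction, and it moved no other count by over 1.5 times. Crossing the numbers of B6 FO and MZ, chosen after seeing the data for the block, gave a replicate block count of 22 among the B6 subsets, 7 in FO against T2FO, 1 in MZ against FO and 7 in the interaction, and 1 over subsets without a block. Leaving out 1 array at a time gave 6 to 9 called in T1, 1 to 3 in T2FO, 1 to 3 in T3, 1 to 3 in FO, 2 in T2MZ, 1 to 2 in MZ, 0 to 3 among the B6 subsets, 0 to 1 among the NOD groups, 0 to 1 in the interaction and 0 in the 4 comparisons of B6 subset pairs. The number of arrays limits the precision, and signal over background cannot be had from centred values.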

Other observations

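Ribosomal protein probe sets annotated to several genes, 110 in all, were kept apart from the members because no single gene can be named for them. Over the subsets 6 of these were called, 3 higher and 3 lower in NOD, where the background was 3.02% (1.64% higher, 1.38% lower). The 110 had a median difference of 0.04 and a range of -4.14 to 1.96. The probe set listed for Rpl17 among others, 1453752_at, stood at -4.14 ± 0.33 in NOD minus B6 (limma, adjusted p = 0.0208), and that of Rpl21, 1423070_at, at -1.90 ± 0.13 (adjusted p = 0.0178). The higher ones included Rpl13 1450150_a_at at 1.79 ± 0.16 and Rps19 1460442_at at 1.22 ± 0.13. Like Rps9 1434624_x_at, the Rpl17 probe set gave a drop far outside the range of most ribosomal protein probe sets. Among the B6 subsets and among the NOD groups 0 of the 110 were called by limma's F test (backgrounds 1.41% and 1.77%).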
